A study of Mus musculus with 30 samples.

Results

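The genes described here were near silent in cultured CT-26 cells and clearly expressed in cultured Colon 26 cells. They were chosen on the deposited counts as genes with 3 counts or fewer in each of 3 CT-26 cultures and 100 counts or more in each of 3 Colon 26 cultures, leaving out symbols that begin with Wnt, Fzd, Sema, Plxn, Eph, Efn, Ntn, Bmp, Col, Itg, Lam, Hox, Krt, Mmp or Adamts. This gave 78 of 53431 genes, and 5 further genes (Sema3f, Bmp4, Ntng2, Adamts9 and Plxna4) met the count limits but carried a skipped symbol. CT-26 and Colon 26 are mouse colon carcinoma lines of BALB/c origin. RNA-seq libraries of poly-A RNA came from 3 cultures of each line and from tumors grown from those lines under the skin of the right flank in BALB/c females, 4 tumors of each model at nominal sizes of 100, 400 and 800 mm3. Actual volumes over both models were 102.9 to 145.86 mm3 at the first size, 400.47 to 466.73 at the second and 807.93 to 963.18 at the third. The labels describe antibody dosing of such mice in general but name no antibody for any sample, so the tumors were taken as untreated. Each tumor library carries a volume of its own in the labels, while nothing says whether the 3 cultures of a line were grown apart, so the spread between cultures may be technical.

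Counts per library summed to between 21384730 and 39722586. The Colon 26 cultures (36042940 to 39722586) were sequenced more deeply than the CT-26 cultures (21384730 to 27856380), and their library numbers belong to separate series, so in the cultures batch and line cannot be told apart. The library numbers of the Colon 26 cultures also lie apart from those of the Colon 26 tumors. Between these, batch and the step from culture to tumor cannot be told apart either. When counts were scaled to the smallest culture library, 53 of the 78 genes still met the limits. The colon epithelial markers Epcam, Cdh1, Cdx1, Lgr5, Cldn7 and Hnf4a were at 3 counts or fewer in every culture of both lines, while Krt20 averaged 25.1 CPM (counts scaled to library depth by TMM over all 30 libraries) in CT-26 and 5.42 in Colon 26 cultures, Krt18 15.96 in CT-26 and Cdx2 5.94 in Colon 26, and the highest of the other means over the 13 listed markers was 0.421, of Krt8 in CT-26. The tumors also held host cells. Summed CPM of 14 leukocyte markers was 65.2 to 72.7 in CT-26 cultures and 7.25 to 9.01 in Colon 26 cultures, against 515 to 2675 in CT-26 tumors and 1326 to 3159 in Colon 26 tumors. Single high markers dominate this sum. Cd68 alone averaged 61.7 CPM in CT-26 cultures, where Ptprc averaged 0.163. At 100 mm3 Lyz2 averaged 1155 CPM in CT-26 and 1863 in Colon 26 tumors, while the means of the T cell markers Cd8a (8.10 and 3.70) and Cd3g (5.76 and 2.74) went the other way. Their SDs were 10.1 and 3.65 for Cd8a and 5.88 and 1.996 for Cd3g, above the means in CT-26 tumors. Of the same list, Cd4 (2.85 and 2.62) differed little, and Adgre1 (92.1 and 74.7) also averaged higher in CT-26. No split between T cell and other leukocyte markers can be read from these means. Fewer cells of a type and less RNA per cell cannot be told apart in such bulk tissue.

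A gene that one line of a tumor type transcribes and another does not can lie at a promoter that is methylated, bound by a repressive complex or lacking an activating factor in the second line. When such a line grows as a tumor, reads of the gene in the tissue can come from the cancer cells or from host leukocytes, vessels and fibroblasts. Among the 78 genes, 74 code for proteins and 4 are noncoding. By known role they comprise 14 regulators of transcription, chromatin or RNA, 12 enzymes, 9 surface proteins, 9 signalling proteins, 7 secreted proteins, 7 channels or transporters, 5 proteins of cell death or growth control, 5 of the cytoskeleton and membrane traffic, 4 noncoding RNAs and 6 proteins that are little described.

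In the Colon 26 cultures the genes had a lower median level than the expressed genes as a whole, and these values chose them, so they are given without a test. Their mean FPKM (fragments scaled to transcript length and library depth) ran from 0.447 to 39.4 with a median of 2.55. All 10727 genes with 100 counts or more in each Colon 26 culture had a median of 14.0, and the 78 genes were 0.727% of these. In CT-26 cultures 15 of the 78 had 0 counts in all 3 libraries. Taking 3 counts per library as the floor, the culture difference was at least 20.2-fold to at least 384-fold. The 10 genes with the highest FPKM in Colon 26 cultures were Gdf15, Pmp22, Ramp3, Lysmd2, Pmaip1, Echdc2, Nipsnap1, Pcbp3, Crtam and Gm1673. Gdf15, a stress-induced cytokine of the TGF-beta superfamily, stood at 39.4 ± 1.23 FPKM (SD, n = 3), and Pmp22, a membrane protein of peripheral myelin, at 17.1 ± 0.610. Just inside the upper limit were Adgrg6, Lrrc8e and Artn, with lowest Colon 26 counts of 102, 104 and 105, and just outside it Gm47015, Gm5537 and Pheta2, with 99, 97.4 and 93. At the lower limit P2rx5, Slc9a2 and Ston2 had up to 3 counts in a CT-26 culture, while Tubb2b, with 3.57, Gpr153, with 4, and Gab1, with 4, fell outside.

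The start regions of 5 of these genes are printed to show promoters of genes that were near silent in the CT-26 cultures. Foxf2, Egr4, Artn and Rab6b were also at the floor in every CT-26 tumor, as described further on, and Axin2, a gene named here after its values were seen, was not. RefSeq promoters of build GRCm38.p6 span 250 bases before to 50 after the gene start, and 55 of the 78 genes (70.5%) matched that table. This is under 80%, so no check of promoter composition over all 78 genes was made. Sequences run 5′ to 3′ along the gene's strand, and capitals mark CG dinucleotides, the bases that can carry methylation.
Foxf2: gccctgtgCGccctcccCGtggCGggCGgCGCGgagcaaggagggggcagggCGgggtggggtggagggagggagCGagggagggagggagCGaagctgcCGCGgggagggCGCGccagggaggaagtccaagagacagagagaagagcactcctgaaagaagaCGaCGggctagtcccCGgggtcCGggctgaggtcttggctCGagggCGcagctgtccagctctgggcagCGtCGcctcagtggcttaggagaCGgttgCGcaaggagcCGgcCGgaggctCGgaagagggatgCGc
Egr4: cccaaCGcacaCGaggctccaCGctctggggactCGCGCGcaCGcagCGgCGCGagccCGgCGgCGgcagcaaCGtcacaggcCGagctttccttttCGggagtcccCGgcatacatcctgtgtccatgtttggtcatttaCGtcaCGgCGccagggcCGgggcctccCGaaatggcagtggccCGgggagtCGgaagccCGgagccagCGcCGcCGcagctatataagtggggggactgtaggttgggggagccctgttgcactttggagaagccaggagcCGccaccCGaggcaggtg
Artn: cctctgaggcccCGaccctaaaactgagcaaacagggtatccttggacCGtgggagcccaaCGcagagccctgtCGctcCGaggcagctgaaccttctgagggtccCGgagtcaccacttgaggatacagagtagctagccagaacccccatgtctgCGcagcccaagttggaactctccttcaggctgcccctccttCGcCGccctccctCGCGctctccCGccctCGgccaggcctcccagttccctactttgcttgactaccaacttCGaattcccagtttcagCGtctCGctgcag
Rab6b: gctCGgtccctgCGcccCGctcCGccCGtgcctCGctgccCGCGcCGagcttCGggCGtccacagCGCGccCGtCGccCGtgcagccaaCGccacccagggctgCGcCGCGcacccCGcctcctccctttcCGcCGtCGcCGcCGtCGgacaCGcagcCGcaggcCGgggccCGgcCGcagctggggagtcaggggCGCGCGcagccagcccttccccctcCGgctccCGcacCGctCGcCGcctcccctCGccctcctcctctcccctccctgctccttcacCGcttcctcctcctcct
Axin2: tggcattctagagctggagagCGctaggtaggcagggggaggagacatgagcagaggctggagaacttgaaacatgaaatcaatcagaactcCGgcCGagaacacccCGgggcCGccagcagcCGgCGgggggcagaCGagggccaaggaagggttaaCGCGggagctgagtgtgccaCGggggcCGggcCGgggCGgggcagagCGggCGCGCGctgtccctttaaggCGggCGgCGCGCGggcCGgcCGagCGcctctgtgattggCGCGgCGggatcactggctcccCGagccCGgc
They lie at chr13:31625566-31625865 (plus strand), chr6:85513540-85513839 (minus strand), chr4:117929714-117930013 (minus strand), chr9:103111824-103112123 (plus strand) and chr11:108920099-108920398 (plus strand). In this order they hold 27, 30, 16, 42 and 31 CG dinucleotides, against a median of 7 in all 32851 promoters of the table, and their GC content is 71.3, 67.7, 61.3, 78.7 and 70.0%, against a median of 52.7%. The GC box GGGCGG, searched on both strands, is present in the windows of Foxf2, Artn, Rab6b and Axin2 and in 35.66% of all promoters. It is not present in the Egr4 window. Methylation was not measured in these samples, and the matches describe letters only.

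In tumors, which the choice of genes did not use, most of the 78 genes were higher in Colon 26 at every size. The models were tested against each other at each size with edgeR (quasi-likelihood, Benjamini-Hochberg over all genes tested). A gene counted as called when its adjusted p was 0.1 or less and its log2 fold change 1 or more in either direction. At 100 mm3 69 of the 78 genes were called higher in Colon 26, where 6.17% of 15406 genes tested were called higher. At 400 mm3 it was 70, against 6.48% of 15241 genes, and at 800 mm3 69, against 6.5% of 15521. None of the 78 was called lower at any size, where 7.06, 7.79 and 7.62% of genes were. With edgeR all 77, 76 and 76 of them that were tested had a fold change above 0, so none was lower at an unadjusted p under 0.05, and DESeq2 and limma also called none lower. For 25, 25 and 23 of those tested, which reached the minimum of the low-count filter in no CT-26 tumor, the edgeR filter itself fixed this direction. Their calls could only be higher. Between 6 and 8 genes were tested and not called at each size. Sh3rf2 was not tested at any size, Gm1673 not at 400 mm3 and Gnao1 not at 800 mm3, since too few libraries passed the filter on low counts.

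**Figure D1:**
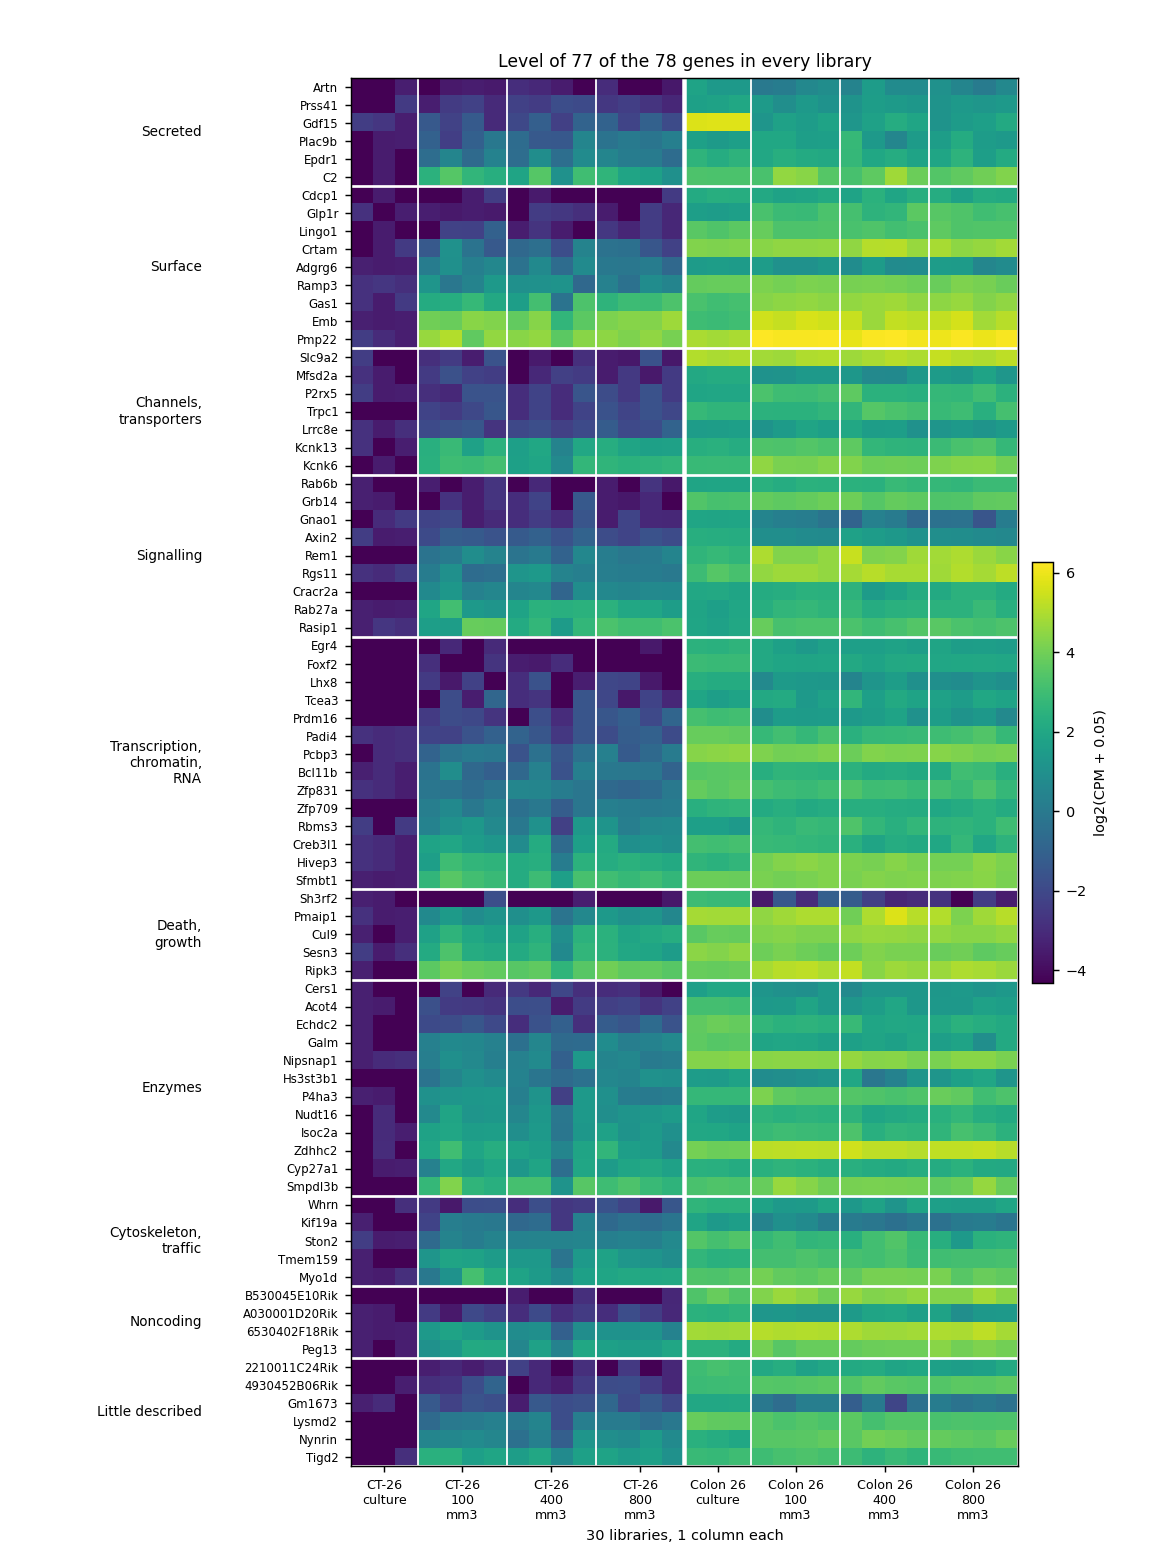
Level of 77 of the 78 genes (rows, grouped by known role) in each of the 30 libraries (columns, grouped by model, culture and tumor size), as log2(CPM + 0.05). The CT-26 cultures on the left are dark throughout because the genes were chosen that way, and the 12 CT-26 tumors range from dark rows such as B530045E10Rik to bright ones such as Pmp22 and Ripk3.

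The median log2 fold change over the tested genes of the 78 was 3.00, 3.41 and 3.08 at 100, 400 and 800 mm3, against 0.00, 0.03 and -0.01 over all genes tested. These medians describe only genes that passed the filter, and at the 3 sizes 33, 38 and 30 of them did so without all 4 CT-26 tumors reaching the minimum, that is by their Colon 26 level, among them 25, 25 and 23 that reached it in no CT-26 tumor. Set to their lower bounds, the 8, 9 and 7 tested genes at the floor in all 4 CT-26 tumors left the medians at 3.00, 3.41 and 3.08, since 0 of these bounds lay below the median. Called higher at all 3 sizes were 65 genes, against 3.96% of the 14909 genes tested at all 3, at 2 sizes 5, at 1 size 3 and at none 5. The 5 were Kif19a, Cyp27a1, Rab27a, Rasip1 and Sh3rf2. Every one of the 12 Colon 26 tumors stood above every one of the 12 CT-26 tumors for 65 of the 78 genes, which held for 5.29% of the 31017 genes with a count in any tumor. The groups overlapped for 13 genes (Rasip1, Rab27a, Kif19a, Hs3st3b1, Adgrg6, Creb3l1, Emb, Smpdl3b, Kcnk13, C2, Gm1673, Gnao1 and Sh3rf2), and none of the 78 lay wholly below.

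**Figure D2:**
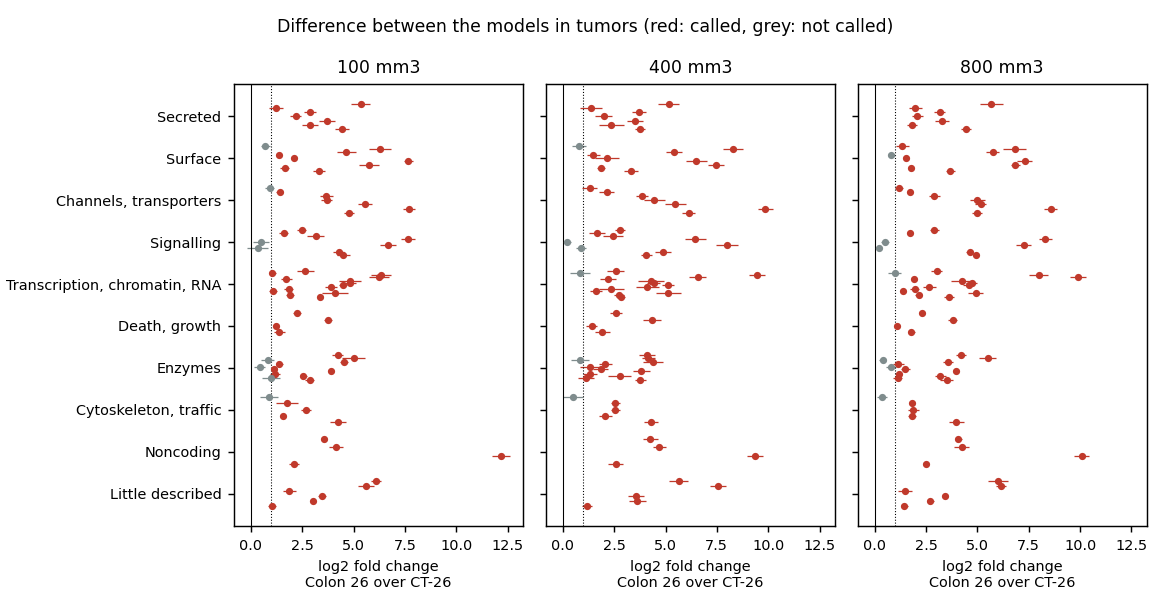
Log2 fold change of Colon 26 over CT-26 tumors at each size (horizontal axis, with bars of 1 SE) for the tested genes, in rows by known role. Red points were called higher and grey points were not called, the solid line marks equal levels and the dotted line a log2 fold change of 1; the points farthest right belong to genes near 0 counts in CT-26 tumors, whose fitted values depend on the prior count.

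The CT-26 tumors fell into a graded series. Of the 78 genes 5 stayed at 3 counts or fewer in each of the 12 CT-26 tumors, 26 exceeded 3 counts in some of them and 47 in all 12. For 39 genes the median of the CT-26 tumors was under 10% of that of the Colon 26 tumors, and for 6 it was 50% or more. In Colon 26 tumors 77 of the 78 genes exceeded 3 counts in all 12, all but Sh3rf2. The levels in those 77 varied by a median of 1.78-fold from the lowest to the highest of the 12 Colon 26 tumors (range 1.21 to 6.09). The 47 genes seen in every CT-26 tumor varied by a median of 4.69-fold there (range 2.64 to 16.7) and of 1.69-fold in Colon 26 tumors (range 1.30 to 4.90). For 33 of the 47 the lowest CT-26 tumor was replicate c of 400 mm3. Without it, a check chosen after seeing the data, the median over the other 11 was 2.78-fold (range 1.53 to 12.8). That tumor also had the lowest leukocyte marker sum of all 24 tumors, 515 CPM, and the part of host cells in these levels was not tested.

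**Figure D3:**
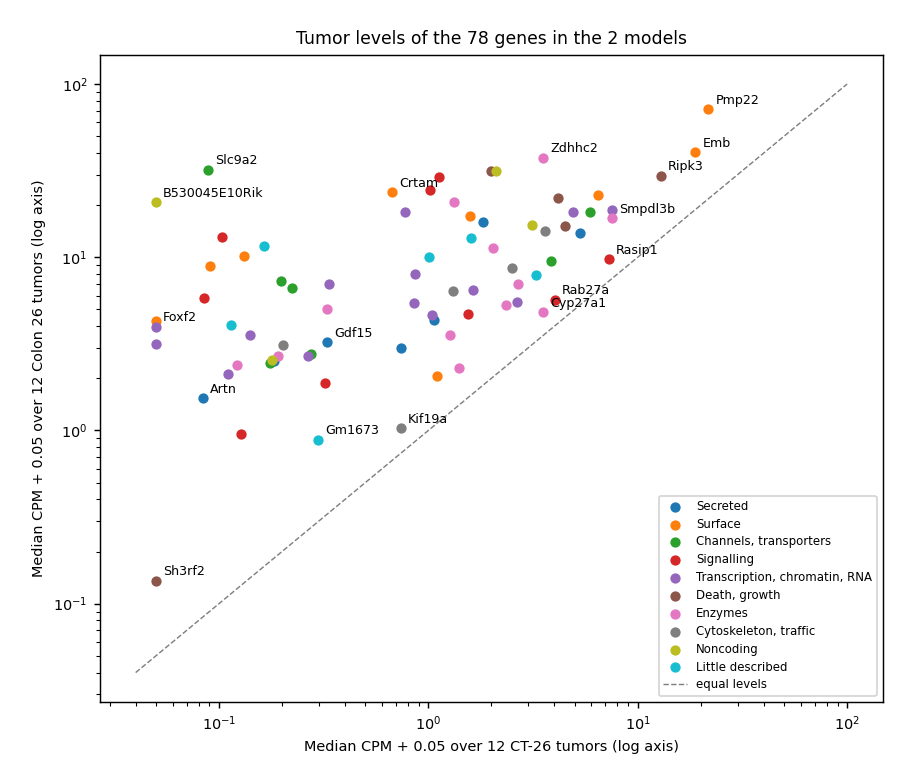
Median CPM + 0.05 over the 12 CT-26 tumors (horizontal log axis) and over the 12 Colon 26 tumors (vertical log axis) for each of the 78 genes, coloured by known role, with a dashed line of equal levels. Every gene lies above the line, Rasip1, Rab27a, Cyp27a1 and Kif19a nearest to it and B530045E10Rik and Slc9a2 far above it.

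The 5 genes that remained at the floor in CT-26 tumors are B530045E10Rik, Rab6b, Foxf2, Egr4 and Artn. B530045E10Rik, a lincRNA, had 0 counts in all 3 CT-26 cultures and measured 10.3, 13.8 and 10.4 CPM in the Colon 26 cultures. The Colon 26 tumors held 19.2, 25.6, 21.3 and 15.6 CPM at 100 mm3, 24.7, 19.5, 20.6 and 23.4 at 400 mm3 and 19.5, 19.98, 27.7 and 20.9 at 800 mm3. All 12 of them were above the cultures, and against the floor of 3 counts per CT-26 tumor the gene was at least 168-fold higher. Foxf2, a forkhead factor of mesenchyme, had 7.33, 6.93 and 7.27 CPM in the Colon 26 cultures and 3.53 to 4.26 CPM (median 3.92) in the 12 Colon 26 tumors, at least 30.6-fold higher than in CT-26 tumors. Its level was lower in all the tumors than in the cultures. Rab6b, a small GTPase of the Golgi, went the other way, from 3.57, 3.75 and 3.73 CPM in culture to 4.62 to 7.41 CPM (median 5.80) in tumors, at least 46.8-fold higher. Egr4, an early growth response transcription factor, stood at 2.51 to 4.10 CPM (median 3.12) in Colon 26 tumors, at least 24.8-fold higher. Artn, which encodes artemin, a ligand of the GDNF family that signals through GFRalpha3 and RET, stood at 0.937 to 2.84 CPM (median 1.49), at least 12.1-fold higher. Their CT-26 tumor counts chose these 5, so their difference is given without a test, and with a limit of 0 counts in place of 3 none of them met it.

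Secreted proteins were called higher in Colon 26 at all 3 sizes for 7 of 7 genes. Over the whole set it was 65 of 78 genes, and over all genes tested at all 3 sizes 3.96%. The counts by role, here and in the paragraphs below, are to be read against these shares. Differences between roles were not tested. Genes that passed the low-count filter only by their Colon 26 level could only be called higher. Gdf15 was far lower in Colon 26 tumors than in the cultures and still separated the models. It had 3, 3 and 1 counts in the CT-26 cultures and 52.9, 54.3 and 53.5 CPM in the Colon 26 cultures. In tumors it measured 2.26, 3.27, 2.85 and 3.51 CPM in Colon 26 and 0.338, 0.163, 0.351 and 0.0686 in CT-26 at 100 mm3, without overlap. The log2 fold changes were 3.70 ± 0.39 (SE, adjusted p = 8e-05), 3.50 ± 0.38 (SE, adjusted p = 0.000139) and 3.26 ± 0.35 (SE, adjusted p = 3.37e-05) at the 3 sizes. At 100 mm3 the CT-26 tumors held 8, 5, 9 and 2 counts of Gdf15, under the minimum of the low-count filter. At that size it passed by its Colon 26 level and could only be called higher. C2, a protease of the complement pathway, was the one secreted protein whose groups overlapped over the 12 tumors of each model, at 9.19 to 27.5 CPM (median 13.8) and 1.96 to 11.0 CPM (median 5.23). Its exons share 1656 bases with the annotated gene Gm20547 on the same strand, so its counts may mix both. The trypsin-like protease Prss41, the ependymin-related Epdr1, Plac9b and Artn did not overlap between the models.

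Surface proteins were called higher at all 3 sizes for 7 of 9 genes. Crtam, an adhesion receptor known from activated T and NK cells, was expressed by the Colon 26 cultures themselves at 19.3, 18.8 and 19.5 CPM, with 0, 1 and 3 counts in CT-26 cultures. In tumors it measured 21.1 to 35.2 CPM (median 23.7) in Colon 26 and 0.156 to 1.99 CPM (median 0.617) in CT-26. The T cell markers Cd3e, Cd3g and Cd8a were at 3 counts or fewer in every culture. Ramp3, a partner of the calcitonin receptor-like receptor, had 13.5, 14.2 and 14.1 CPM in culture, 14.2 to 18.8 CPM (median 17.2) in Colon 26 tumors and 0.556 to 2.61 CPM (median 1.53) in CT-26 tumors. Pmp22 was above its culture level in the tumors of both models. It averaged 73.7 ± 2.57 CPM (SD, n = 4) in Colon 26 tumors of 100 mm3 and 23.5 ± 8.27 in CT-26 tumors, a log2 fold change of 1.64 ± 0.23 (SE, adjusted p = 0.000441). At 800 mm3 the averages were 68.2 ± 5.76 and 20.3 ± 2.74, and the log2 fold change 1.75 ± 0.10 (SE, adjusted p = 9.95e-07). Pmp22 is a Schwann cell marker too, and the other 6 genes of the Schwann list summed to 8.64 to 16.5 CPM in Colon 26 tumors, 4.22 to 8.68 in CT-26 tumors and 1.86 to 3.59 in cultures. Sox10 and Ngfr of that list were at the floor in every culture, and the part of nerve cells in the tumor levels was not tested. Glp1r, the receptor of glucagon-like peptide 1, was at 5.72 to 12 CPM (median 8.84) in Colon 26 tumors and at no more than 0.136 CPM in a CT-26 tumor. Cdcp1, a substrate of Src kinases, and Lingo1, a coreceptor of the Nogo receptor complex, behaved alike, with highest CT-26 tumor values of 0.137 and 0.446 CPM. Gas1, a hedgehog coreceptor, was higher at all sizes. Adgrg6, an adhesion G protein-coupled receptor, passed at 800 mm3 only, with log2 fold changes of 0.71 ± 0.24 (SE, adjusted p = 0.0339), 0.78 ± 0.36 (SE, adjusted p = 0.108) and 1.35 ± 0.29 (SE, adjusted p = 0.00322).

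Channels and transporters were called higher at all 3 sizes for 6 of 7 genes. Slc9a2, a sodium-proton exchanger, had 3, 0 and 0 counts in CT-26 cultures and 33.0, 30.5 and 32.4 CPM in Colon 26 cultures. In Colon 26 tumors it stood at 26.5 to 40.1 CPM (median 32.0), and reached at most 0.275 CPM in a CT-26 tumor. The ATP-gated channel P2rx5, the cation channel Trpc1, the lysophospholipid transporter Mfsd2a and Lrrc8e, a subunit of volume-regulated anion channels, also stayed below 0.5 CPM in every CT-26 tumor. The potassium channels Kcnk6 and Kcnk13 did not. Kcnk6 held 1.54 to 8.48 CPM (median 5.89) in CT-26 and 15.3 to 23.0 CPM (median 18.3) in Colon 26 tumors. Kcnk13 held 1.30 to 7.29 CPM (median 3.78) and 5.78 to 12.4 CPM (median 9.47), and its log2 fold change of 0.91 ± 0.21 (SE, adjusted p = 0.00608) at 100 mm3 was under the limit of 1.

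Signalling proteins were called higher at all 3 sizes for 6 of 9 genes. Axin2, a scaffold of the beta-catenin destruction complex and a feedback target of Wnt signalling, had 5.01, 4.76 and 4.61 CPM in the Colon 26 cultures and 3, 1 and 1 counts in the CT-26 cultures. Colon 26 tumors held 1.51 to 3.30 CPM (median 1.82) and CT-26 tumors 0.176 to 0.470 CPM (median 0.272). The tumor groups did not overlap, and log2 fold changes were 2.47 ± 0.22 (SE, adjusted p = 3.3e-05), 2.79 ± 0.25 (SE, adjusted p = 5.44e-05) and 2.90 ± 0.23 (SE, adjusted p = 5e-06). Grb14, an adaptor that restrains the insulin receptor, was at 10.3 to 15.2 CPM (median 13) in Colon 26 tumors and at most 0.342 CPM in CT-26 tumors. Rem1, a small GTPase of the RGK family, and Rgs11, a regulator of G protein signalling, were above their culture level in all Colon 26 tumors, at 18.6 to 41.5 CPM (median 24.5) and 23.3 to 37.3 CPM (median 28.9). Cracr2a, a calcium sensor of store-operated calcium entry, and Rab6b were called at every size. Gnao1, the alpha subunit of the G protein Go, was higher at both sizes at which it was tested. Rab27a, a GTPase of secretory vesicle release, and Rasip1, a Ras-interacting protein known from endothelial cells, were called at no size. Rasip1 measured 3.04, 2.94, 13.9 and 13.6 CPM in the CT-26 tumors of 100 mm3, replicates a to d, and 14.2, 8.97, 9.77 and 9.55 in the Colon 26 tumors. The 8 endothelial markers summed to 71.0, 93.9, 235 and 184 CPM in those CT-26 tumors, and the part of vessels was not tested. In culture these markers were near 0, at 0.33 to 1.18 CPM, whereas Rasip1 was at 3.72, 3.29 and 4.03 CPM in Colon 26 cultures. Exons of Rasip1 share 654 bases with the annotated gene Izumo1 on the same strand, so its counts may mix both.

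**Figure D4:**
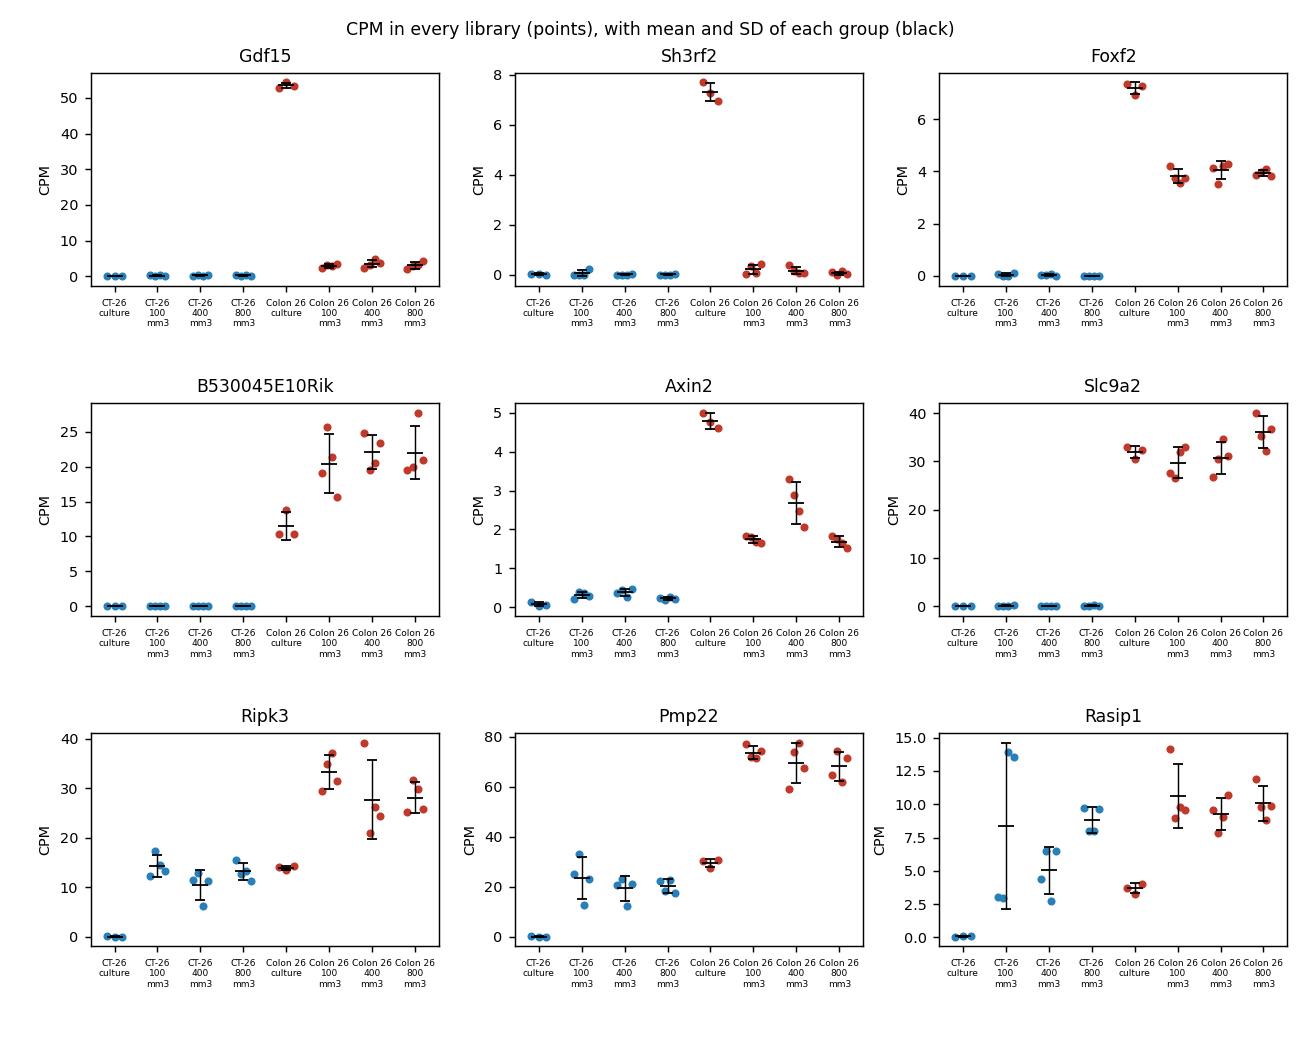
CPM of 9 of the genes in every library (points; CT-26 blue, Colon 26 red), with the mean and SD of each group in black, for the cultures and the 3 tumor sizes of each model. Gdf15 and Sh3rf2 are lower in Colon 26 tumors than in the cultures, B530045E10Rik and Pmp22 are higher, Slc9a2 is similar, and Rasip1 is the one panel where the tumors of the models overlap beside Sh3rf2.

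Regulators of transcription, chromatin and RNA made up the largest role, and 13 of 14 were called higher at all 3 sizes. Besides Foxf2 and Egr4, they include the LIM homeodomain factor Lhx8, the brown fat factor Prdm16, the elongation factor Tcea3 and Padi4, which citrullinates histones, all below 0.6 CPM in every CT-26 tumor. Pcbp3, a poly(C)-binding protein, had 20.4, 21.7 and 22.8 CPM in Colon 26 cultures, 14.9 to 20.1 CPM (median 18.3) in Colon 26 tumors and 0.276 to 1.17 CPM (median 0.721) in CT-26 tumors. Bcl11b, a zinc finger factor of T cell commitment, was expressed by the Colon 26 cultures at 11.1, 11.7 and 12 CPM, and it measured 4.30 to 8.18 CPM (median 5.37) and 0.269 to 1.80 CPM (median 0.801) in the tumors of the models. Sfmbt1, a chromatin protein with MBT domains, was at 3.07 to 11.5 CPM (median 7.47) in CT-26 tumors against 16.1 to 21 CPM (median 18.8) in Colon 26. It was called at every size, with log2 fold changes of 1.07 ± 0.18 (SE, adjusted p = 0.00102), 1.62 ± 0.30 (SE, adjusted p = 0.0022) and 1.38 ± 0.11 (SE, adjusted p = 4.91e-06). Creb3l1, a membrane-bound factor of secretory and matrix genes, was called at 100 mm3 only, at 1.05 ± 0.16 (SE, adjusted p = 0.000769), 0.85 ± 0.49 (SE, adjusted p = 0.19) and 0.99 ± 0.32 (SE, adjusted p = 0.0239). The zinc finger proteins Zfp831, Zfp709 and Hivep3 and the nucleic acid binding protein Rbms3 were called at every size.

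Of 24 genes of DNA methylation and of the Polycomb and KRAB silencing machinery, a list set beside these genes, none is among the 78. In tumors 0, 1 and 0 of the 23, 22 and 23 tested were called higher in Colon 26 at 100, 400 and 800 mm3 and none lower, where 6.17, 6.48 and 6.5% of all genes were called higher and 7.06, 7.79 and 7.62% lower. Counts near such shares are no result about the list. In the cultures single members stood apart in both directions. The maintenance methyltransferase Dnmt1 averaged 97.2 CPM in CT-26 and 196 in Colon 26, and its partner Uhrf1 69.0 and 133. The Polycomb genes Rnf2, at 60.7 and 36.3, and Cbx7, at 46.4 and 23.5, went the other way. These genes were named for their culture values, which were not tested, and batch and line cannot be told apart there. In tumors of 100, 400 and 800 mm3 Dnmt1 averaged 203, 202 and 202 CPM in CT-26 and 189, 192 and 175 in Colon 26.

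Genes of cell death and growth control were called higher at all 3 sizes for 4 of 5. Ripk3, the kinase that triggers necroptosis, had 1, 0 and 0 counts in CT-26 cultures and 14.1, 13.5 and 14.2 CPM in Colon 26 cultures. CT-26 tumors nevertheless contained 12.2, 17.3, 14.4 and 13.3 CPM at 100 mm3, against 29.4, 34.8, 37.2 and 31.5 in Colon 26 tumors. Over the 12 CT-26 tumors it ran at 6.10 to 17.3 CPM (median 12.8), and all 12 Colon 26 tumors stayed above all 12 CT-26 tumors. Its log2 fold changes were 1.20 ± 0.12 (SE, adjusted p = 6.79e-05), 1.41 ± 0.26 (SE, adjusted p = 0.00233) and 1.09 ± 0.11 (SE, adjusted p = 3.14e-05). Pmaip1, which encodes the p53 target Noxa, had 28.4, 28.0 and 28.1 CPM in culture, 15.6 to 52.5 CPM (median 31.2) in Colon 26 tumors and 0.806 to 2.71 CPM (median 1.95) in CT-26 tumors. The sestrin Sesn3, a restraint on mTORC1, and Cul9, a cullin that binds p53, were also higher at every size. Sh3rf2, a RING finger protein with SH3 domains, was the exception. It had 7.68, 7.27 and 6.96 CPM in the Colon 26 cultures and 0 to 0.413 CPM (median 0.0853) in the Colon 26 tumors, while CT-26 tumors held at most 0.240 CPM.

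Enzymes were called higher at all 3 sizes for 9 of 12. Nipsnap1, a mitochondrial protein, had 19.5, 19.8 and 21 CPM in the Colon 26 cultures, 17.6 to 24.1 CPM (median 20.8) in Colon 26 tumors and 0.422 to 2.61 CPM (median 1.27) in CT-26 tumors. It was nearly level across the Colon 26 libraries. Echdc2, a protein with an enoyl-CoA hydratase domain, had 12.8, 14.8 and 13.4 CPM in culture, 3.71 to 7.07 CPM (median 4.98) in Colon 26 tumors and 0.0789 to 0.607 CPM (median 0.277) in CT-26 tumors. Zdhhc2, a palmitoyltransferase, was above its culture level of 16.5, 14.9 and 15.1 CPM in all Colon 26 tumors, at 34.0 to 45.7 CPM (median 37.5). Smpdl3b, a sphingomyelin phosphodiesterase-like protein, was missed at 100 mm3 by its size of effect, at 0.98 ± 0.42 (SE, adjusted p = 0.0823), and called at the larger sizes with 1.14 ± 0.39 (SE, adjusted p = 0.0424) and 1.11 ± 0.22 (SE, adjusted p = 0.0016). The heparan sulfate sulfotransferase Hs3st3b1 was called at 400 mm3 only and the sterol hydroxylase Cyp27a1 at no size. Cyp27a1 held 4.17 to 5.83 CPM (median 4.78) in Colon 26 and 0.652 to 4.14 CPM (median 3.49) in CT-26 tumors, which did not overlap, and its log2 fold changes were 0.81, 0.84 and 0.39. The ceramide synthase Cers1, the thioesterase Acot4, the mutarotase Galm, the collagen prolyl hydroxylase subunit P4ha3, Isoc2a and Nudt16 were called at every size. Exons of Cers1 share 1349 bases with the annotated gene Gdf1 on the same strand, so its counts may mix both.

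Among 5 genes of the cytoskeleton and membrane traffic, the PDZ scaffold Whrn, the myosin Myo1d, the endocytic adaptor Ston2 and the lipid droplet protein Tmem159 were called at every size. The kinesin Kif19a was not, and held 0.708 to 1.95 CPM (median 0.983) in Colon 26 and 0.115 to 1.2 CPM (median 0.687) in CT-26 tumors. All 4 noncoding RNAs were called at every size. 6530402F18Rik was at 26.2 to 36.9 CPM (median 31.3) in Colon 26 tumors and 0.422 to 3.54 CPM (median 2.06) in CT-26 tumors, but it shares 558 exon bases on the same strand with Ntng2, a gene left out by its symbol. Peg13, an imprinted RNA, was at 11.6 to 21.1 CPM (median 15.2) and 1.27 to 4.25 CPM (median 3.07). A030001D20Rik lies antisense to Rasip1. Its tumor levels were 1.86 to 3.85 CPM (median 2.5) in Colon 26 and 0.0334 to 0.232 CPM (median 0.129) in CT-26.

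Of the 6 little described genes 5 were called at every size. Lysmd2, with a LysM domain, had 14.1, 12.9 and 12.4 CPM in Colon 26 cultures, 8.79 to 12.2 CPM (median 10.0) in their tumors and 0.230 to 1.33 CPM (median 0.957) in CT-26 tumors. Nynrin, with an NYN domain and a retroviral integrase domain, Tigd2, 2210011C24Rik and 4930452B06Rik were likewise separated between the models. Gm1673 had 4.06, 4.07 and 4.15 CPM in culture, 0.185 to 1.124 CPM (median 0.835) in Colon 26 tumors and 0.0394 to 0.530 CPM (median 0.248) in CT-26 tumors, which overlapped, and it was called higher at 100 and 800 mm3.

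Seen from the CT-26 side, the genes with the highest mean CPM in CT-26 tumors were Pmp22, Emb, Ripk3, Smpdl3b, Rasip1 and Sfmbt1. CPM does not correct for length, and by mean FPKM in those tumors the first 5 were also Pmp22, Ripk3, Emb, Smpdl3b and Rasip1. Pmp22, Emb and Ripk3 had 100 counts or more in each of the 12 CT-26 tumors, although none exceeded 3 counts in a CT-26 culture. Emb, the embigin chaperone of monocarboxylate transporters, measured 13.1, 20.2, 6.29 and 12 CPM in CT-26 tumors of 400 mm3, replicates a to d, and 41.7, 25.9, 39.7 and 36.6 in Colon 26 tumors. The leukocyte markers summed to 1256, 1722, 515 and 1526 and 3159, 1326, 2014 and 1821 CPM in the same tumors, where in both models the tumor with the lowest sum had the lowest Emb. It did not hold in CT-26 tumors of 100 mm3 or in either model at 800 mm3, where the CT-26 tumor with the lowest sum, 1481 CPM, had the highest Emb, 26.3. With all 12 tumors of each model, Emb overlapped, at 6.29 to 26.3 CPM (median 18.8) in CT-26 and 25.9 to 50.03 CPM (median 40.2) in Colon 26. It was called at 100 and 400 mm3 and missed the limit of size at 800 mm3, with 0.81 ± 0.17 (SE, adjusted p = 0.00234). Smpdl3b held 2.11 to 19.5 CPM (median 7.49) and 13.2 to 24.7 CPM (median 16.8). The part of host cells in these levels was not tested.

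From culture to tumor within Colon 26, most of the genes stayed above 25% of their culture level. As the cultures chose the genes, and as cultures and tumors of Colon 26 differ in library series, these values are a description. The median of the 12 tumors was at least 25% of the culture mean for 74 of the 78. This is a smaller share than the 98.9% of the 10727 genes with 100 counts or more in each Colon 26 culture. The ratio had a median of 103% over the 78 genes and of 94.7% over the 10727, and 41 of the 78 were above their culture level. Among the highest were Emb at 517%, Rem1 at 386%, Rgs11 at 311% and Hivep3, a large zinc finger factor, at 311%. Below 25% were Sh3rf2 at 1.17%, Gdf15 at 5.94%, Gm1673 at 20.4% and Gnao1 at 24.8%. Counted from the lowest of the 10727 genes, Sh3rf2 ranked 4 and Gdf15 20, so both were among the lowest ratios.

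**Figure D5:**
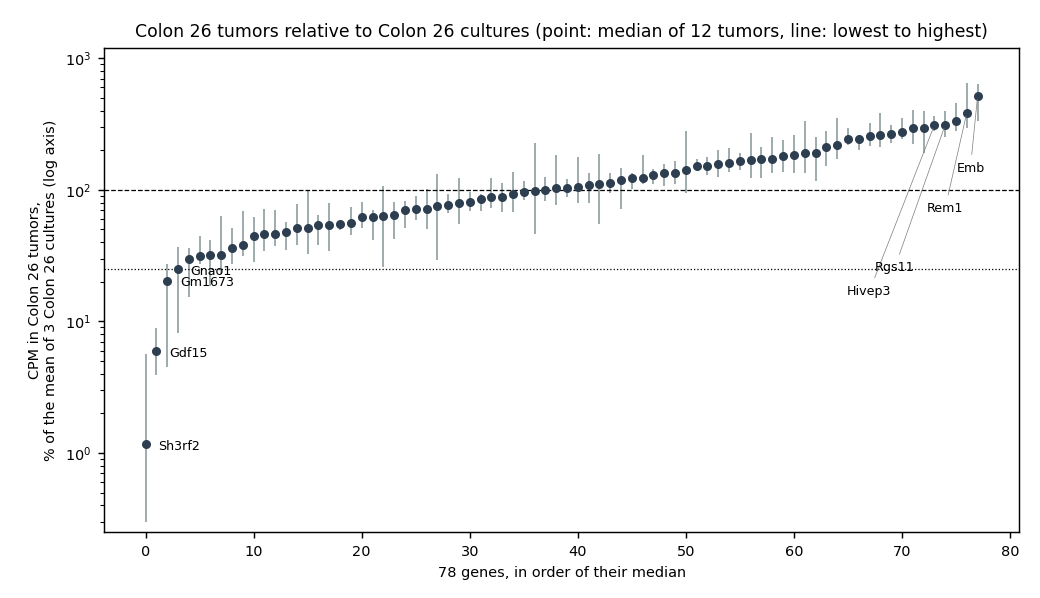
CPM in Colon 26 tumors as percent of the mean of the 3 Colon 26 cultures (log axis) for the 78 genes in order of their median; points are medians of 12 tumors and lines run from the lowest to the highest tumor, cut at 0.3%. The dashed line marks 100% and the dotted line 25%, with Sh3rf2, Gdf15, Gm1673 and Gnao1 under it.

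Between Colon 26 tumors of 100 and 800 mm3, no gene of the 78 was called. Of 77 tested, 0 were called higher and 0 lower by edgeR, where 0.169 and 1.16% of 15404 genes were, and DESeq2 also called 0. At an unadjusted p under 0.05 there were 12 by edgeR, of which 6 were higher at 800 mm3, and 13 by DESeq2. Over all genes 20.7% by edgeR and 11.8% by DESeq2 had such a p. No change with size in the difference between the models was called for any of the 77. The test was of the model by size term over the 100 and 800 mm3 tumors. Such a change was called in 0 by edgeR and 0 by DESeq2, each with 9 at an unadjusted p under 0.05. Over all genes 12.5% by edgeR and 7.22% by DESeq2 had such a p. Over all genes 0.0123% were called with a positive term and 0.0185% with a negative one. With shares this low, the 0 called in either test is no result about these genes.

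In the genome the 78 genes were spread over every autosome but 16 and 19. Chromosome 9 held 10 (12.8%, against 5.74% of the 10727 genes expressed in Colon 26 cultures), chromosome 4 held 9, chromosomes 8 and 11 held 8 each, and none lay on the sex chromosomes. Some neighbouring members lay within 1 Mb. On chromosome 14 of GRCm38, Ripk3 and Nynrin lie 65.1 kb apart. With no other annotated protein-coding gene between them were Pmp22 (chr11:63128982-63159547) and Hs3st3b1 (chr11:63885792-63922290), 726.2 kb apart. Rasip1 (chr7:45627488-45639093) and A030001D20Rik (chr7:45635680-45638765) overlap by 498 exon bases on opposite strands. The handling of strand in counting is not given in the sources used here, so their reads, and those of the other overlapping genes, cannot be told apart. In all, exons of 24 of the 78 genes overlap another annotated gene, 9 on the same strand and 19 on the opposite one. Of the 54 without an overlap, 47 had all Colon 26 tumors above all CT-26 tumors, near the share of 65 in all 78. Over genes with a count in any tumor it was 5.29%.

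The mirror rule, 3 counts or fewer in each Colon 26 culture and 100 or more in each CT-26 culture, gave 30 genes, fewer than the 78. Of the 30, 22, 23 and 24 were called lower in Colon 26 tumors at 100, 400 and 800 mm3, where 7.06, 7.79 and 7.62% of genes tested were. None was called higher, where 6.17, 6.48 and 6.5% were. Those of the 30 that passed the low-count filter only by their CT-26 level could only be called lower, and their number was not counted. For 23 all CT-26 tumors stood above all Colon 26 tumors, which 6.72% of genes with a count in any tumor did. Limits on unscaled counts take no account of the deeper Colon 26 cultures. On counts scaled to the smallest culture library, the rules gave 53 and 38 genes.

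Lists of markers of cells a tumor could hold were set beside these results, to be read against the 6.17 to 6.5% of all genes called higher and the 7.06 to 7.79% called lower. In Colon 26 tumors of 100, 400 and 800 mm3, 0, 1 and 0 of the 13 leukocyte markers tested were called higher and 1, 5 and 2 lower. Of the 8 endothelial markers tested none was called in either direction. Fibroblast and pericyte markers called higher numbered 5, 5 and 4 of 10 and lower 1, 2 and 1, but the cultured lines expressed some of these themselves, with sums of 58.6 to 61 CPM in CT-26 and 181 to 193 in Colon 26 cultures. Cspg4 averaged 0.304 CPM in CT-26 and 82.3 in Colon 26 cultures, and Pdgfrb 33.9 and 71.5. Adipocyte markers called higher numbered 1, 1 and 2 of the 6, 3 and 6 tested. Only 2, 2 and 1 of 8 keratinocyte markers could be tested, and none was called. Skeletal muscle markers summed to between 1.85 and 604 CPM in CT-26 tumors and 2.39 and 2880 in Colon 26 tumors, so the amount of muscle varied widely between tumors. At 800 mm3 7 of the 8 tested were called lower. Among colon epithelial markers 3, 2 and 3 of the 5, 5 and 6 tested were called higher and 2 lower at each size. Schwann cell markers called higher were 2 at each size, of 4, 3 and 3 tested, Pmp22 among them. Of 40 germline genes only 7, 8 and 8 could be tested, and 3, 3 and 5 were called lower and none higher. Of the 28, 26 and 28 imprinted genes tested, 8, 8 and 11 were called higher and 3, 2 and 2 lower. Of 5 genes around Cdkn2a 3 could be tested at each size, and none was called.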

How the data were processed

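RNA-seq libraries of poly-A RNA from 6 cultures and 24 tumors were analysed, grouped by the model, tissue and size in their labels. The authors counted reads on Ensembl genes with Array Studio and deposited estimated counts, not normalized, and FPKM, both per gene and library; the aligner, build and handling of strand are not given in the sources used here. Of the non-zero counts 23.0% were not whole numbers, although the planned tests spoke of raw counts, so counts were rounded before testing and used as deposited in the rule. The 78 genes and all lists were chosen with earlier results of these data known.

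Tests used edgeR 4.0.16 in R 4.3.3 (filterByExpr, TMM, quasi-likelihood F-test, Benjamini-Hochberg), each fit with the libraries of its comparison only, at the study's thresholds of adjusted p 0.1 and absolute log2 fold change 1. The study's tool, DESeq2 (1.24.0 in the submitters' processing notes), was run in version 1.42.0 as an alternative, and limma 3.58.1 on log2(FPKM + 1). Standard errors are the log2 fold change over the root of F. CPM use 1 TMM scaling of all 30 libraries. Python 3.11.15 with pandas 2.3.3 and matplotlib 3.10.9 did the rest. Symbols came from the GENCODE annotation of GRCm38 (52207 of 53431 identifiers, 97.7%), and 0 columns were left unused. On counts simulated from the 100 mm3 tumors (15176 genes), the test recovered 89 of 100 genes changed by a log2 fold change of 1.5 and 98 of 100 changed by 3, and called 9 unchanged genes. The changed genes were drawn only from those above a minimum expected count, so these rates do not describe genes with fewer counts. Floors of 3 counts cover counting error only, and library totals are given in the report.

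Genes named with values were the 10 highest by FPKM in Colon 26 cultures, the 6 highest by CPM in CT-26 tumors, up to 6 highest in Colon 26 tumors among those at the floor in CT-26 tumors, members called lower or changed with growth (none), adjoining members, members of the lists and genes next to the limits. Other genes were named after their values were seen, and 1 of the 78 and 1 marker gene are counted but not reported by name here. Alternatives were other normalizations, filters and thresholds, all 24 tumors in 1 fit, other limits of the rule and leaving out each library in turn.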

Additional observations from a re-analysis of the deposited data

Results flagged for a closer look

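Within groups of 4 tumors, single libraries stood apart in 11 of 117 groups checked over 20 of the genes, by Dixon's gap test at the 95% level. Chance alone sets apart about 1 in 20 groups. In CT-26 tumors, Ramp3 was at 0.556 CPM in replicate d of 400 mm3, with the others at 1.97 to 2.11, and Smpdl3b at 19.5 CPM in replicate b of 100 mm3, with the others at 5.11 to 6.58. In Colon 26 tumors, Echdc2 was at 7.07 CPM in replicate a of 400 mm3 (others 3.71 to 4), which also had the highest muscle marker sum of all tumors, 2880 CPM. Smpdl3b was at 24.2 CPM in replicate c of 800 mm3 (others 13.2 to 14.9), where B530045E10Rik was also apart at 27.7 CPM (others 19.5 to 20.9). Rasip1 was at 14.2 CPM in replicate a of 100 mm3 (others 8.97 to 9.77), and Foxf2 at 3.53 CPM in replicate b of 400 mm3 (others 4.14 to 4.26). The remaining 4 concern CT-26 tumors at 3 counts or fewer, where a single count sets a library apart: B530045E10Rik at 0.0623 CPM in replicate d of 800 mm3, Rab6b at 0.0682 in replicate b of 400 mm3 and Egr4 at 0.0337 in replicate c of 800 mm3, each with the others at 0, and Artn at 0 in replicate a of 100 mm3 with the others at 0.0327 to 0.039.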

How the results depend on the processing

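The counts of genes higher in Colon 26 tumors moved by over 1.5 times under limma on log2(FPKM + 1), which called 44, 46 and 43 of the 78 at 100, 400 and 800 mm3; its added 1 shrinks fold changes of low genes. DESeq2, RLE normalization, library size only, no filter, a mean count of 10, all 24 tumors in 1 fit and an adjusted p of 0.05 kept them within 1.5 times, as did restricting to the 53 genes that met the limits on scaled counts (49, 50 and 49 higher), and no gene changed direction. With no minimum fold change 1 gene was higher in larger Colon 26 tumors. The rule gave 15 genes with 0 counts, 143 with up to 10 counts in CT-26 cultures and 31 with 300 or more in Colon 26 cultures. At the floor in all CT-26 tumors were 0 genes with a limit of 0 counts and 21 with 10. Leaving out a library gave 67 to 73, 67 to 71 and 68 to 71 genes higher in Colon 26 tumors, and 79 to 87 genes by the rule. No paired analysis was possible because the labels carry no replicate numbers. Depth limits the genes near 3 counts, where 1 library decides.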
